A study of Mus musculus with 12 samples.

Results

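Transcripts of the cytosolic ribosomal protein genes were followed in interneurons (IN) and pyramidal cells (Pyr) sorted from the postnatal mouse cortex. Genes were taken by symbol, Rpl or Rps with a number or Rplp0 to Rplp2, without the Rps6k kinases and without pseudogene symbols that contain -ps. Each was represented by its brightest probe set. The rule gave 62 genes of 19937 with a probe set of their own. For 59 of the 62, a RefSeq transcript of the gene was among the accessions of that probe set. Among the 62, 53 encode one of 79 listed proteins of the cytosolic ribosome (20 of the small subunit, 30 of the large subunit and 3 of its stalk). A further 7 are paralogs of such genes, and 2 (Rps19bp1 and Rps23rg1) share the symbol but encode no ribosomal protein. Of the other listed genes, Rpsa and Fau fell outside the symbol rule, 16 lay only in probe sets that name several genes, and 8 were not analysed here.

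Cells were GFP+ by Cre recombination of the RCE:LoxP reporter, in C57BL6 mice. Interneurons were taken at P10 (IN P10) and P0 (IN P0) from Nkx2-1Cre;RCE:LoxP cortices, in which Cre follows the progenitors of the medial ganglionic eminence, and pyramidal cells at P12 (Pyr P12) and P0 (Pyr P0) from NexCre;RCE:LoxP cortices, in which Cre follows young excitatory neurons. Each group had 3 arrays, which the labels call biological replicates and letter A to C, and every group had passed through papain dissociation, fluorescence sorting and RNA amplification. The older ages differ between the populations, the pyramidal samples are labelled as somatosensory cortex, and cells of other lineages that express the same Cre carry the same GFP. Values are log2 RMA values of a probe set on Affymetrix arrays, they are compared between arrays and never between probe sets, and 12 arrays limit the precision. In sorted bulk RNA, fewer cells of a type and less RNA per cell cannot be told apart.

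Most ribosomal proteins are needed in equal amounts for each ribosome, and their genes are among the most highly transcribed of a cell. Most of their mRNAs begin with a tract of pyrimidines at the cap, the terminal oligopyrimidine (TOP) motif, through which mTORC1 and the RNA-binding protein Larp1 adjust their translation and stability, and Myc family factors and RNA polymerase I set ribosome production in growing cells. In the developing brain this output is high in progenitors and in neurons that are extending processes.

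The promoters are shown because the members share start-site sequence that the symbol rule did not use. RefSeq promoter windows of the GRCm38.p6 build, with 250 bases before and 50 after an annotated start, were found for 50 of the 62 genes, in 59 windows. A run of at least 8 C or T on the gene strand within 50 bases of the start was present in 71.2% of the members' windows (42 of 59), and in 35.7% of all 32851 windows. The letters CCGGAAG, which hold the core of an ETS-type site, were found on either strand in 32.2% of members' windows and in 8.86% of all windows, whereas TATAAA on the gene strand was found in 8.47% and in 8.32%. A match describes the letters of a window and is no evidence of a bound factor or of a cap site. The 30 bases around the longest C/T run near the start, with that run in capitals, are given for the genes with the largest falls in interneurons (Rps15a, Rps12), for other canonical genes with a run close to the start, and for 4 genes that did not fall in both populations:
Rps15a: gcccggcccaCTCTCTTTCTgccatcttcc
Rps12: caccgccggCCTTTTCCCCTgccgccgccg
Rps10: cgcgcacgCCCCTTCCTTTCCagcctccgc
Rps6: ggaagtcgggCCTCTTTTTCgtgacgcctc
Rpl28: cctctcgtgTCTCTCTTTCCgtctccggcc
Rpl38: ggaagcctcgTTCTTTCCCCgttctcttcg
Rplp2: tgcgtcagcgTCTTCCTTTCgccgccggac
Rpl27: tcatcctcgCTCCTCCCTCCacacgccgga
Rpl7l1: gtcgaggcgggCCTCTCTaccccgcccggt
Rpl10l: cagtctctatgaTTCCCgcaaggcttgatg
Rps19bp1: ctcctgctccagTTTCTgccgaggagcgaa

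These stretches lie at chr7:118116143-118116172 on the minus strand for Rps15a, chr10:23787181-23787210 (minus) for Rps12, chr17:27635226-27635255 (minus) for Rps10, chr4:86857349-86857378 (minus) for Rps6, chr7:4792953-4792982 (plus) for Rpl28 and chr11:114668568-114668597 (plus) for Rpl38. Those of Rplp2, Rpl27, Rpl7l1, Rpl10l and Rps19bp1 lie at chr7:141447636-141447665 (plus), chr11:101442194-101442223 (plus), chr17:46782670-46782699 (minus), chr12:66284428-66284457 (minus) and chr15:80264328-80264357 (minus). The run began 1 base before the annotated start in Rps6, 2 before in Rpl38, 3 before in Rps10 and Rpl28 and 5 before in Rplp2. In the genes with the largest falls it lay further off. It began 15 bases before the start in Rps15a and at transcribed base 9 in Rps12. In Rpl27 the longest run in that stretch, of 11 bases, lay 42 bases before the start. Within 50 bases of the start, the longest run was 7 bases in the paralog Rpl7l1 and 5 bases in the paralog Rpl10l and in Rps19bp1. These do not stand for their class. Of 10 windows of paralogs and members that are no ribosomal protein, 5 (50%) held a run of at least 8 bases. The median longest run was 8 bases in these windows and 10 in those of canonical genes.

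With age, the ribosomal protein transcripts fell in both neuron types. Comparing IN P10 with IN P0, limma put 52 of the 62 genes lower and 0 higher at a Benjamini-Hochberg adjusted p under 0.05, where 23.1% of all probe sets tested were lower and 22.3% higher. At an unadjusted p under 0.05, 53 were lower and 1 higher, where 5796 and 5610 of all 22961 probe sets were. SAM called 54 lower and 2 higher. In Pyr P12 against Pyr P0, 52 were lower and 0 higher, where 21.7% of all probe sets were lower and 33.0% higher. At an unadjusted p under 0.05, 52 were lower and 1 higher, where 5325 and 8274 of all 22961 probe sets were. SAM called 54 lower and 0 higher. The shares of SAM calls over all probe sets are not given here for either population. The median log2 difference of the members was -0.66 in interneurons and -0.64 in pyramidal cells, and that of all probe sets 0.00 and 0.06. The falls were mostly smaller than 2-fold: 5 genes in interneurons and 14 in pyramidal cells passed that fold, against 2.85% and 3.48% of all probe sets.

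The separation of the arrays was nearly complete. The 3 IN P10 arrays lay below the 3 IN P0 arrays for 54 genes, against 28.3% of all probe sets. The 3 Pyr P12 arrays lay below the 3 Pyr P0 arrays for 51 genes, against 22.5% of all probe sets, and 50 genes showed this in both populations. Averaged over the 62 genes, the level was 11.09 ± 0.0576 in IN P10, 11.70 ± 0.0316 in IN P0, 10.98 ± 0.0269 in Pyr P12 and 11.61 ± 0.0654 in Pyr P0 (SD over arrays, n = 3 each). Within a group, the SD of a gene over its arrays ran between 0.003 and 0.397 with a median of 0.0802, several times smaller than the median fall. Other bright probe sets had medians near 0. Among 2814 of them with a mean of at least 11, the median difference was 0.04 in interneurons and 0.03 in pyramidal cells, while the 41 members this bright had medians of -0.68 and -0.75.

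**Figure D1:**
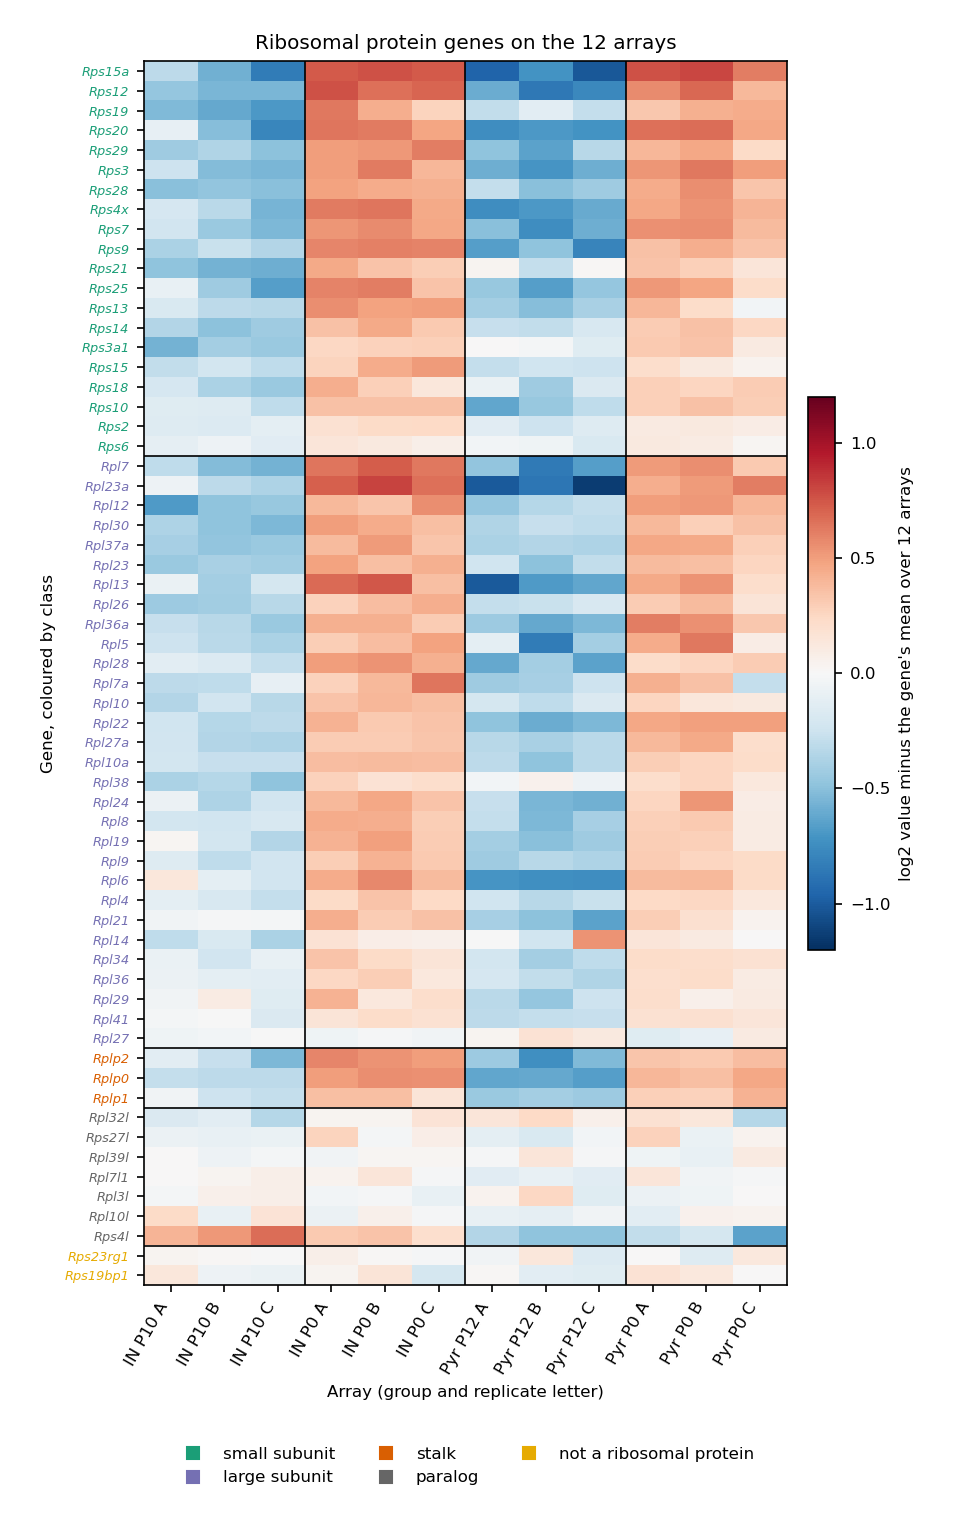
Log2 value of each of the 62 genes on each of the 12 arrays minus that gene's mean over the 12 arrays (colour scale, log2 units), with genes in rows by class and arrays in columns in the order IN P10, IN P0, Pyr P12, Pyr P0. Most rows of the subunit and stalk classes are below their mean in the IN P10 and Pyr P12 columns and above it in the P0 columns, while the paralog rows have no common pattern.

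All 20 members of the small subunit were lower with age in both populations, with medians of -0.92 in interneurons and -0.81 in pyramidal cells, and 4 and 7 of them fell by more than 2-fold. Rps15a, a protein of the small subunit, had 10.30, 10.04 and 9.78 in IN P10, against 11.35, 11.38 and 11.34 in IN P0. It had 9.65, 9.89 and 9.59 in Pyr P12, against 11.38, 11.41 and 11.23 in Pyr P0. Every older array was more than 1 log2 unit below every P0 array of its population, and the fall of 1.32 in interneurons (SE 0.111, adjusted p = 2.9e-07 in limma) and 1.63 in pyramidal cells (SE 0.111, adjusted p = 2.8e-08) was the largest of all members in each.

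Rps12, which is known in flies for a part in cell competition, had 10.99, 10.91 and 10.91 in IN P10, against 12.23, 12.12 and 12.16 in IN P0. It had 10.86, 10.60 and 10.68 in Pyr P12, against 12.03, 12.15 and 11.85 in Pyr P0. The groups of each population lay far apart, with differences of -1.23 and -1.29 (SE 0.0798 each), that is 2.34-fold and 2.45-fold lower at the older age. Rps20, a protein of the head of the small subunit, had 12.70, 12.29 and 12.02 in IN P10, against 13.44, 13.43 and 13.27 in IN P0. It had 12.06, 12.11 and 12.09 in Pyr P12, against 13.46, 13.47 and 13.26 in Pyr P0. IN P10 A was the highest of the IN P10 arrays, without reaching the IN P0 arrays, and the differences were -1.04 and -1.32 (SE 0.127 each). Rps15a, Rps12, Rps20 and the large subunit gene Rpl7 were the 4 members lower by more than 2-fold in both populations.

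At the other end stood Rps6, the small subunit protein that S6 kinases phosphorylate downstream of mTORC1. It lay between 13.97 and 14.04 in IN P10, against 14.25, 14.22 and 14.17 in IN P0, and had 14.07, 14.05 and 13.92 in Pyr P12, against 14.22, 14.21 and 14.13 in Pyr P0. Its older arrays lay just below its P0 arrays. The difference was -0.21 in interneurons (adjusted p = 0.0053, limma) and -0.17 in pyramidal cells (adjusted p = 0.018), and the pyramidal call was lost without Pyr P12 C, where the difference was -0.12, and without Pyr P0 A or B, where it was -0.15 and -0.16. After a second quantile normalization the pyramidal difference was -0.07 (adjusted p = 0.32, limma), and with the pyramidal groups alone its adjusted p was 0.062. Rps6 had the highest mean of the 62 probe sets, and how far the probes of the brightest sets respond in proportion was not tested. The gene has 7 probe sets, of which 6 were lower with age in each population. Their differences lay between -0.44 and -0.01 in interneurons and between -1.36 and -0.14 in pyramidal cells. The size of its fall thus depends on the probe set that the rule took.

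Of the 30 large subunit genes, 29 were lower in IN P10 and 28 in Pyr P12 than at P0, with medians of -0.63 and -0.67. Rpl7 had 11.34, 11.12 and 11.08 in IN P10, against 12.28, 12.37 and 12.27 in IN P0. It had 11.17, 10.80 and 10.98 in Pyr P12, against 12.15, 12.20 and 11.95 in Pyr P0. The ages did not overlap in either population, and Rpl7 was 2.18-fold and 2.17-fold lower at the older age. Rpl5, which with Rpl11 binds the 5S RNA and can hold Mdm2 in check when assembly is disturbed, had differences of -0.70 and -0.85, with SEs of 0.157 that were among the widest of the members. Rpl29 was among the weakest falls in interneurons, at -0.28, and its call was lost without IN P10 C (-0.22) or without IN P0 A (-0.20).

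The stalk is the flexible arm of the large subunit that recruits translation factors, built from Rplp0, Rplp1 and Rplp2, and all 3 genes were lower with age in both populations. Rplp0 had 12.92, 12.89 and 12.89 in IN P10, against 13.71, 13.76 and 13.75 in IN P0. It had 12.58, 12.59 and 12.54 in Pyr P12, against 13.60, 13.57 and 13.67 in Pyr P0. This was one of the tightest members, with differences of -0.84 and -1.04 (SE 0.0468 each, adjusted p = 6.2e-09 and 4.4e-10, limma). Rplp1 had differences of -0.48 and -0.75, and Rplp2 of -0.86 and -0.91. All 3 class means of subunits and stalk were lower at the older ages. They were 11.47 in IN P10, 12.32 in IN P0, 11.43 in Pyr P12 and 12.23 in Pyr P0 for the small subunit, 11.50, 12.13, 11.37 and 12.04 in the same groups for the large subunit, and 11.50, 12.22, 11.22 and 12.13 for the stalk. IN P10 A was the highest and IN P10 C the lowest array of its group in all 3 classes, at 11.56 and 11.38 for the small subunit, still well below the 12.27 of the lowest IN P0 array.

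**Figure D2:**
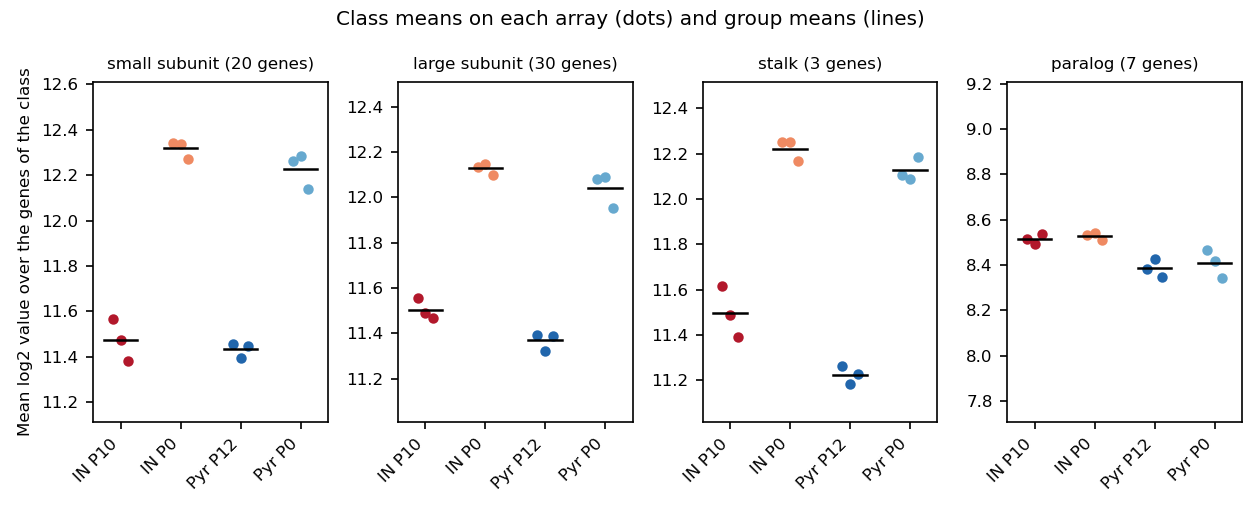
Mean log2 value over the genes of each class on each array, for small subunit, large subunit, stalk and paralogs, with the groups along the x axis in the order IN P10, IN P0, Pyr P12, Pyr P0, 1 point per array and a bar at the group mean. In the subunit and stalk classes every older array lies below every P0 array, while paralog means lie between 8.34 and 8.54 in all groups.

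The genes that did not fall were mostly the paralogs. Of 51 members lower in both populations, all were canonical ribosomal protein genes. Rpl14 was lower only in interneurons, Rpl7l1 only in pyramidal cells, and 9 members passed in neither: Rpl27, the paralogs Rps27l, Rpl32l, Rpl3l, Rpl10l, Rpl39l and Rps4l, and Rps19bp1 and Rps23rg1. The 7 paralogs had medians of -0.02 in interneurons and -0.06 in pyramidal cells. Of these, Rpl39l and Rpl3l, paralogs known from testis and from striated muscle, were above background on 0 of 12 arrays, where background is the level under which 95% of the 1204 probe sets for odour and pheromone receptors lay. Rpl10l, a testis paralog of the X-linked Rpl10, had 7.46, 7.14 and 7.39 in IN P10, 7.15, 7.29 and 7.21 in IN P0, 7.13, 7.12 and 7.18 in Pyr P12 and 7.10, 7.28 and 7.27 in Pyr P0, at or near the background level of 7.13 to 7.45. Its parent Rpl10 had differences of -0.68 and -0.40.

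Rpl7l1, a relative of Rpl7 known for a part in assembling the large subunit, was bright and nearly level. It had 11.18, 11.21 and 11.24 in IN P10, against 11.21, 11.32 and 11.16 in IN P0, which overlapped, and 11.03, 11.08 and 11.03 in Pyr P12, against 11.31, 11.13 and 11.16 in Pyr P0. Its difference of -0.15 in pyramidal cells (adjusted p = 0.05, limma) lost the call under 12 of the alternatives tried. Rps27l, a p53 target, had a difference of -0.19 in each population (adjusted p = 0.11 and 0.094, limma), which SAM called in both.

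Rpl27 was the one canonical gene that passed in neither population. It had 11.54, 11.56 and 11.58 in IN P10, against 11.54, 11.58 and 11.54 in IN P0. It had 11.62, 11.76 and 11.70 in Pyr P12, against 11.44, 11.49 and 11.70 in Pyr P0. The ages overlapped in both populations. The gene has 3 probe sets, however, with differences between -0.56 and 0.01 in interneurons and between -0.89 and 0.15 in pyramidal cells, of which 2 were lower in each, so its level result rests on the probe set that the rule took.

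Rpl14, a large subunit protein with 1 probe set, had 9.26, 9.38 and 9.18 in IN P10, against 9.73, 9.64 and 9.62 in IN P0, a difference of -0.39 (adjusted p = 0.037, limma). It had 9.55, 9.32 and 10.10 in Pyr P12, against 9.70, 9.67 and 9.56 in Pyr P0, a difference of 0.01. Pyr P12 C stood above all other arrays of this gene, and the pyramidal ages overlapped.

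Probe sets that the rule set aside moved the same way. Of 128 further probe sets of the member genes, 108 were lower and 0 higher in interneurons, and 111 lower and 2 higher in pyramidal cells, with medians of -0.64 and -0.71. Of 205 probe sets that name a listed ribosomal protein gene together with other genes, 162 were lower and 1 higher in interneurons, and 164 lower and 3 higher in pyramidal cells. These sets hold processed pseudogenes and near-identical copies, whose signals the probes cannot be relied on to separate, and the same holds for the members with up to 10 probe sets. Of the 25 members with 1 probe set, 17 were lower in each population, and of the 37 with several, 35 in each. Of the 2 ribosomal protein genes outside the symbol rule, Rpsa, which also acts as a laminin receptor, had 12.10, 12.30 and 12.31 in IN P10, against 12.97, 12.83 and 12.74 in IN P0, and 12.15, 12.04 and 12.10 in Pyr P12, against 12.63, 12.65 and 12.52 in Pyr P0. Fau, which encodes a ubiquitin-like protein fused to a small subunit protein, had 12.85, 12.81 and 12.60 in IN P10, against 13.28, 13.30 and 13.28 in IN P0, and 12.40, 12.48 and 12.47 in Pyr P12, against 13.06, 13.04 and 12.93 in Pyr P0. Both were lower with age in each population without overlap, by 1.52-fold and 1.41-fold for Rpsa and 1.45-fold and 1.47-fold for Fau.

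The falls of the 2 populations, which share no arrays, were alike gene by gene. Over the 62 members, the age difference in interneurons and that in pyramidal cells had a Pearson r of 0.815 and a Spearman rho of 0.784, and over the 53 canonical members 0.728 and 0.672. These points share probe sets, and with them probe response and brightness, and genes are not independent replicates. The fall was larger in interneurons for 25 members and larger in pyramidal cells for 35.

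**Figure D3:**
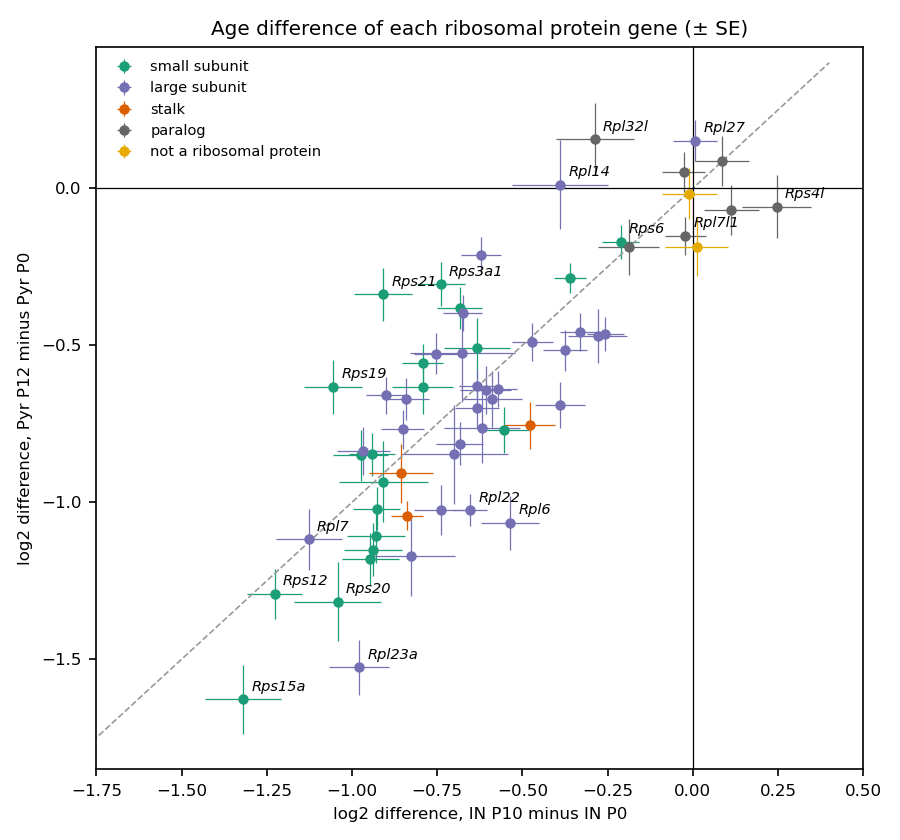
Log2 difference of IN P10 minus IN P0 (x axis) against that of Pyr P12 minus Pyr P0 (y axis) for each of the 62 genes, coloured by class, with bars of 1 SE from limma and a dashed line of equal change. Most canonical genes lie at negative values on both axes, with Rps15a at the far end (-1.32 and -1.63) and the paralogs near 0.

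Whether the change differed between the populations was tested as age by population, the difference IN P10 minus IN P0 less the difference Pyr P12 minus Pyr P0. Of the 62 genes, 5 had a positive term, a smaller fall in interneurons, and 8 a negative term, a larger fall in interneurons. Of all probe sets, 11.8% had a positive and 20.3% a negative term, so the members' shares were no larger than the background. The split depended on the scaling, with 7 positive and 4 negative when arrays were centred on their medians and 6 and 6 after a second quantile normalization. It also moved with single arrays: positive terms numbered 3 without IN P10 A, 9 without IN P10 C and 8 without Pyr P0 C, and negative terms 5 without IN P10 C or without IN P0 B.

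The genes with a positive term were Rpl23a, Rpl6, Rpl22, Rpl21 and Rplp0. Rpl23a, which lies at the exit of the peptide tunnel, had 11.98, 11.72 and 11.67 in IN P10, against 12.76, 12.85 and 12.69 in IN P0. It had 11.03, 11.17 and 10.90 in Pyr P12, against 12.48, 12.55 and 12.65 in Pyr P0. All its ages were apart, with the Pyr P12 arrays lowest, and it was 1.97-fold lower with age in interneurons and 2.88-fold lower in pyramidal cells. The term of 0.55 (SE 0.124, adjusted p = 0.0042, limma) held for this probe set. Only 2 of the 10 probe sets of Rpl23a had a positive call, however, with terms between -0.29 and 0.55. The mean over them gave 0.04.

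Rpl6, a large subunit protein, had 13.18, 12.92 and 12.81 in IN P10, against 13.49, 13.62 and 13.42 in IN P0, and 12.33, 12.30 and 12.29 in Pyr P12, against 13.42, 13.42 and 13.27 in Pyr P0. Its IN P10 arrays all lay above its Pyr P12 arrays while the P0 arrays of the populations overlapped, and the term was 0.53 (SE 0.121, adjusted p = 0.0043, limma). Of the 3 probe sets of Rpl6, 1 had a positive call, and the terms lay between 0.15 and 0.53. Rpl22, whose loss in mice blocks the development of a class of T cells, had 10.31, 10.21 and 10.24 in IN P10, against 10.97, 10.86 and 10.90 in IN P0, and 10.07, 9.96 and 10.01 in Pyr P12, against 11.02, 11.05 and 11.04 in Pyr P0. Its IN P10 arrays lay above its Pyr P12 arrays and its IN P0 arrays below its Pyr P0 arrays, with a term of 0.37 (SE 0.0728, adjusted p = 0.0015, limma).

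The genes with a negative term were Rps21, Rps3a1, Rps19, Rpl38, Rps15, Rpl10, Rpl30 and Rps14. Rps21, a small subunit protein, had 9.88, 9.80 and 9.77 in IN P10, against 10.82, 10.70 and 10.65 in IN P0. It had 10.40, 10.08 and 10.37 in Pyr P12, against 10.70, 10.65 and 10.50 in Pyr P0. The interneuron ages lay nearly 1 log2 unit apart and the pyramidal ages nearly met, which gave a term of -0.57 (SE 0.119, adjusted p = 0.0023, limma). The other of the 2 probe sets of Rps21 had a term of -0.36 and was not called. Rps3a1 had 8.90, 9.06 and 9.03 in IN P10, against 9.72, 9.74 and 9.75 in IN P0, and 9.48, 9.45 and 9.33 in Pyr P12, against 9.79, 9.81 and 9.57 in Pyr P0, with a term of -0.43. Rps19, the gene most often mutated in Diamond-Blackfan anaemia in humans, had 11.14, 11.05 and 10.97 in IN P10, against 12.29, 12.10 and 11.93 in IN P0, and 11.37, 11.54 and 11.38 in Pyr P12, against 11.98, 12.09 and 12.11 in Pyr P0, with a term of -0.42. In each of these small subunit genes the P0 arrays of the populations overlapped and the IN P10 arrays lay below the Pyr P12 arrays.

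Rpl38, which mouse mutants tie to the translation of Hox mRNAs, had 12.33, 12.37 and 12.23 in IN P10, against 12.98, 12.88 and 12.92 in IN P0, and 12.67, 12.76 and 12.64 in Pyr P12, against 12.92, 12.96 and 12.84 in Pyr P0. The pyramidal fall was the smaller one, 1.16-fold against 1.54-fold in interneurons, and the term was -0.41 (SE 0.0824, adjusted p = 0.0019, limma). Of the 4 probe sets of Rpl38, 2 had a negative call, with terms between -0.41 and 0.27, and the mean over them gave -0.11.

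Between the populations at the older ages, IN P10 exceeded Pyr P12 in 23 of the 62 genes and was lower in 7, where 16.1% of all probe sets were higher and 30.4% lower, and the medians were 0.14 for the members and -0.07 for all probe sets. By class, 5 small subunit genes were higher and 4 lower, 13 large subunit genes higher and 2 lower, all 3 stalk genes higher, and 2 paralogs higher and 1 lower. The count of higher genes was 13 without IN P10 A and 14 without Pyr P12 C. IN P10 A also had the highest mean of its group in oligodendrocyte lineage markers (10.15, against 9.59 and 9.66 on the other arrays), astrocyte markers (8.17, against 7.96 and 7.97) and cycling cell markers (7.49, against 7.34 and 7.28), and the part of these cells in the count was not tested. Further, the count of lower genes was 4 without IN P10 C. None of these reached 2-fold, age and population cannot be told apart in this comparison, and each array group also enters the age comparisons above.

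The widest of these differences was in Rps4l, an autosomal relative of the X-linked Rps4x whose listed RefSeq transcript is non-coding. Rps4l had 10.15, 10.26 and 10.41 in IN P10, against 9.38, 9.26 and 9.25 in Pyr P12. It had 10.06, 10.08 and 9.94 in IN P0, against 9.44, 9.53 and 9.10 in Pyr P0. Every interneuron array lay above every pyramidal array, by 0.97 at the older ages (adjusted p = 3.1e-06, limma) and 0.67 at P0 (adjusted p = 0.00018), and both probe sets of the gene were higher at each age. With age it had differences of 0.25 in interneurons (adjusted p = 0.063, limma) and -0.06 in pyramidal cells, and the interneuron difference passed under 6 alternatives, among them SAM. Rps4x, by contrast, had 12.01, 11.88 and 11.65 in IN P10, against 11.46, 11.52 and 11.60 in Pyr P12, and 12.84, 12.85 and 12.66 in IN P0, against 12.67, 12.75 and 12.62 in Pyr P0. It was lower with age in both populations, by 1.92-fold and 2.22-fold, and IN P10 exceeded Pyr P12 by 0.32 (adjusted p = 0.0078, limma).

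After Rps4l, the members most above Pyr P12 in IN P10 were Rpl23a (0.76, adjusted p = 9.9e-06), Rpl6 (0.66, adjusted p = 2.6e-05) and Rpl13 (0.54, adjusted p = 0.0037, limma), and Rpl13 averaged over its 9 probe sets had 0.02. The members most below were Rps21 (-0.47), Rps3a1 (-0.42), Rpl38 (-0.38) and Rpl14 (-0.38, adjusted p = 0.04, limma). Rpl38 averaged over its probe sets had -0.11 (adjusted p = 0.088, limma). Rpl14 had -0.16 without Pyr P12 C (adjusted p = 0.13), and its call was lost under 9 alternatives in all, among them the replicate block (adjusted p = 0.051, limma), the compared groups alone (0.082), both rescalings, and the fits without IN P10 A (0.088) or IN P10 C (0.12).

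At P0 the populations were closer. In IN P0 against Pyr P0, 6 genes were higher and 0 lower, where 11.1% of all probe sets were higher and 11.3% lower, with a median of 0.07 for the members. At an unadjusted p under 0.05, 13 were higher and 1 lower, where 3500 and 3544 of all 22961 probe sets were. SAM called 11 higher and 1 lower, and its share over all probe sets is not given here. The 6 were Rps4l, Rps13 (0.32), Rps15 (0.28), Rpl28 (0.23), Rps9 (0.22) and Rpl10 (0.20). Rps13, a small subunit protein, had 11.23, 11.15 and 11.17 in IN P0, against 11.07, 10.89 and 10.64 in Pyr P0. Its call was lost without Pyr P0 C, the lowest of these arrays, where the difference was 0.21. It was also lost without IN P0 A, with the compared groups alone and with the probe sets of the gene averaged. Rpl10, Rpl28 and Rps9 lost their calls without several single arrays, and Rpl10 (0.13) and Rpl28 (0.18) also when their probe sets were averaged. Only 3 genes were called without IN P0 A, and 3 without IN P0 B.

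**Figure D4:**
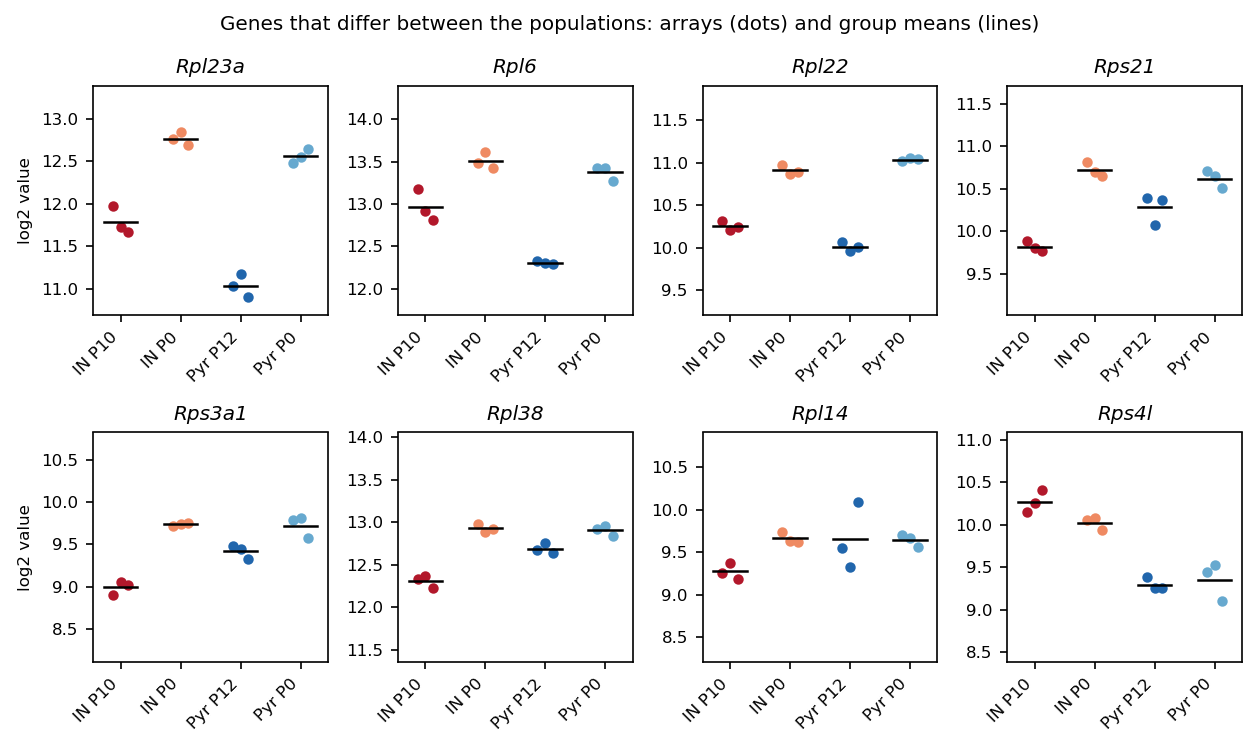
Log2 value on each array for 8 genes that differed between the populations (Rpl23a, Rpl6, Rpl22, Rps21, Rps3a1, Rpl38, Rpl14 and Rps4l), with groups along the x axis in the order IN P10, IN P0, Pyr P12, Pyr P0, 1 point per array and a bar at the group mean. Rps4l is higher on all 6 interneuron arrays than on any pyramidal array, Rpl23a and Rpl6 are lowest in Pyr P12, Rps21 and Rps3a1 are lowest in IN P10, and Pyr P12 C is the high point of Rpl14.

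Other genes of the translation machinery were counted in the same fit, and each count is set against the shares of all probe sets, 23.1% lower and 22.3% higher with age in interneurons and 21.7% lower and 33.0% higher in pyramidal cells. Of 16 elongation factors and other TOP genes, 12 were lower and 2 higher with age in each population, with medians of -0.41 in interneurons and -0.45 in pyramidal cells. Eef1b2, an exchange factor of the elongation factor that delivers tRNA, had differences of -0.75 and -0.84, and Naca, a chaperone of nascent chains, of -0.68 and -0.57. The 2 exceptions were the same genes in both populations, Eef1a2 and Eif5a2, the forms of their factors known from neurons and muscle and from a restricted set of tissues. Eef1a2 had 12.97, 12.97 and 12.96 in IN P10, against 11.49, 11.48 and 11.33 in IN P0, and 13.02, 13.06 and 13.08 in Pyr P12, against 11.63, 11.79 and 11.68 in Pyr P0, differences of 1.53 and 1.36 with no overlap.

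Of 34 translation initiation factors, 15 were lower and 5 higher in interneurons, and 16 lower and 6 higher in pyramidal cells, with medians of -0.10 and -0.14. The initiation factor 3 subunits Eif3e (-0.83 and -0.52) and Eif3f (-0.67 and -0.73) were lower, and Eif2b2, a subunit of the exchange factor for initiation factor 2, was higher (0.42 and 0.56). Of 70 ribosome assembly factors, 44 were lower and 8 higher in interneurons, and 32 lower and 12 higher in pyramidal cells, with medians of -0.31 and -0.17. The nucleolar helicase Ddx21 was lower (-1.05 and -0.96), and Ltv1, which helps the small subunit mature in the cytoplasm, was higher by 1.38-fold and 2.30-fold. Of 16 genes of RNA polymerase I and its factors, 9 were lower and 0 higher in interneurons, and 9 lower and 1 higher in pyramidal cells. Ubtf, which binds rDNA, had differences of -0.58 and -0.37.

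Of the 34 mTORC1 and TOP regulators, 11 increased and 8 decreased in interneurons, where all probe sets had 22.3% and 23.1%. Pyramidal cells had 14 increases and 10 decreases, where all probe sets had 33.0% and 21.7%, or 11 and 12 after a second quantile normalization. Larp1, which binds TOP mRNAs, had differences of 0.00 and -0.08 and was not called, and Mtor itself was higher (0.28 and 0.43). Eif4ebp2, a repressor of initiation that mTORC1 switches off, was lower (-1.61 and -1.08). Myc, a transcription factor of ribosome production, had 10.14, 10.29 and 10.41 in IN P10, against 10.97, 11.37 and 11.29 in IN P0, and 9.14, 9.09 and 9.26 in Pyr P12, against 11.51, 11.56 and 11.39 in Pyr P0. Its fall of 0.93 in interneurons was smaller than that of 2.32 in pyramidal cells (age by population, adjusted p = 5.2e-06, limma), and Mycn fell by 0.95 and 1.38.

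Mitochondrial ribosomal protein genes, whose products build a separate ribosome, went the other way. Of 77, 46 rose and 2 fell with age in interneurons, and 48 rose and 5 fell in pyramidal cells, with medians of 0.31 and 0.27. Mrpl10 (0.82 and 0.69) and Mrpl36 (0.86 and 0.81) were among the most increased, and Mrpl52 (-0.51 and -0.52) was lower.

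**Figure D5:**
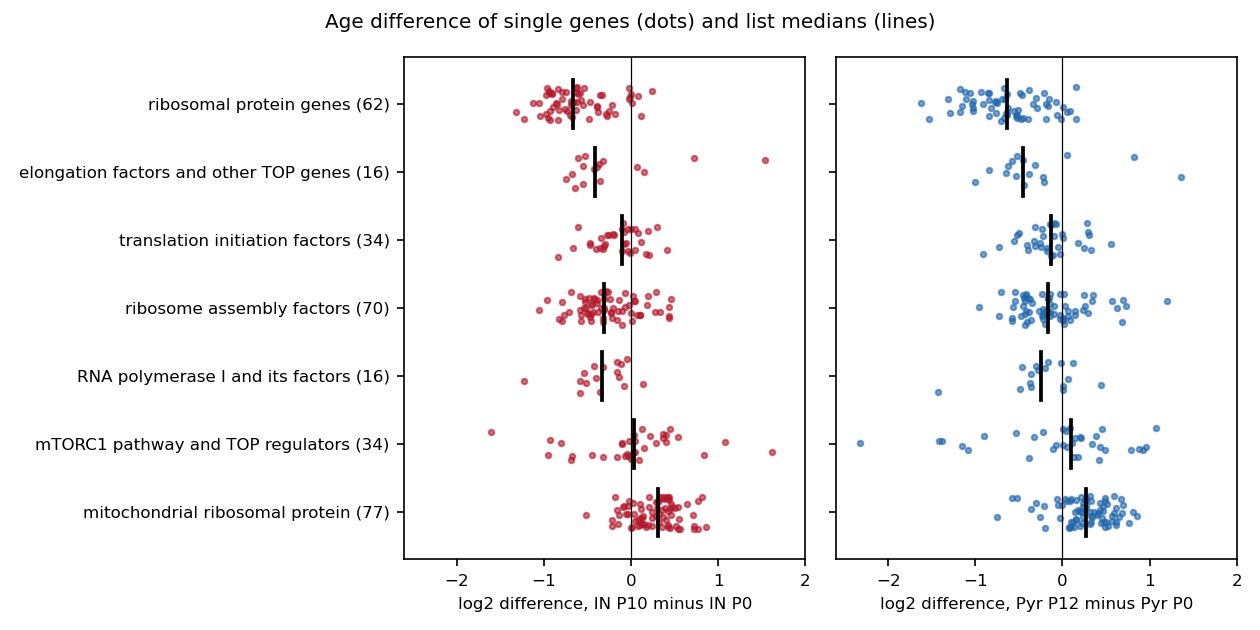
Log2 difference with age (x axis) for each gene of 7 lists (rows), the cytosolic ribosomal protein genes and 6 lists of other translation genes, as IN P10 minus IN P0 in the left panel and Pyr P12 minus Pyr P0 in the right panel, with 1 point per gene and a bar at the median. The cytosolic ribosomal protein genes have medians of -0.66 and -0.64, elongation factors and other TOP genes -0.41 and -0.45, and mitochondrial ribosomal protein genes 0.31 and 0.27.

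The labels held in the neuron markers, and other cell markers moved with some groups. All 12 interneuron markers were higher, and 9 of 10 pyramidal markers lower, in interneurons than in pyramidal cells at both ages, with Gad1 at 4.75 and 3.11 and Slc17a7 at -5.22 and -2.18 at the older ages and at P0. Most markers of the opposite population were lower at the older age (7 of 10 pyramidal markers in interneurons and 9 of 12 interneuron markers in pyramidal cells, with 1 higher in each). Pyramidal markers were at 8.27 in IN P10 against 9.17 in IN P0 (group means), and interneuron markers at 8.24 in Pyr P12 against 9.39 in Pyr P0. Within their own population, 6 of 12 interneuron markers were lower and 4 higher with age, and 5 of 10 pyramidal markers lower and 2 higher. Of all probe sets, 23.1% were lower with age in interneurons and 21.7% in pyramidal cells. Oligodendrocyte lineage markers had array means of 9.59 to 10.15 in IN P10, 9.10 to 9.26 in IN P0, 7.84 to 7.95 in Pyr P12 and 7.66 to 7.88 in Pyr P0, and of 14 such genes IN P10 exceeded Pyr P12 in all, and IN P0 exceeded Pyr P0 in 10. Between 10 and 14 of these 14 genes were above background on all 3 arrays of each group. Cycling cell markers had array means of 7.28 to 7.49 in IN P10, 7.79 to 7.84 in IN P0, 7.32 to 7.44 in Pyr P12 and 7.49 to 7.59 in Pyr P0. Of 9 such genes, 8 fell and 0 rose with age in interneurons, and 2 fell and 1 rose in pyramidal cells. Microglia markers had array means of 7.32 to 7.40 in IN P10, 7.11 to 7.17 in IN P0, 7.30 to 7.42 in Pyr P12 and 7.07 to 7.25 in Pyr P0, and of 10 such genes 4 rose with age in interneurons and 6 in pyramidal cells, and 0 fell. Between 3 and 7 of these genes were above background on no array of a group. Astrocyte markers had array means of 7.96 to 8.17 in IN P10, 7.86 to 7.99 in IN P0, 8.18 to 8.31 in Pyr P12 and 7.71 to 7.75 in Pyr P0, with 4 of 10 genes higher and 3 lower with age in each population. Endothelial and mural markers had array means between 7.44 and 7.66 on all arrays. Dissociation stress and immediate early genes had array means of 8.92 to 9.02 in IN P10, 9.22 to 9.46 in IN P0, 9.63 to 9.83 in Pyr P12 and 8.92 to 9.11 in Pyr P0. Of 11 such genes, 2 rose and 6 fell with age in interneurons, and 7 rose and 1 fell in pyramidal cells. The part of these other cells, of the opposite population, of dividing cells and of dissociation in the ribosomal protein results was not tested.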

How the data were processed

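RNA of sorted cells (3 arrays in each of 4 groups) was hybridized to Affymetrix Mouse Gene arrays. The authors corrected, quantile-normalized and summarized the scans with RMA, and the log2 values were used as deposited (28192 probe sets, 0 missing, range 4.74 to 14.73). Software versions and the annotation release of that step are not given in the sources used here. RMA equalizes the distributions of arrays, so a change of total RNA per cell is not visible.

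Gene symbols came from the platform annotation, in which 21640 probe sets carried 1 symbol, 1321 carried several (fitted, never named) and 5231 carried no symbol (not fitted). The Entrez identifiers of 21553 single-symbol sets were matched to the RefSeq table of GRCm38.p6, with 0 symbols altered. Where a gene had more than 1 probe set, the brightest over the 12 arrays stood for it.

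All 12 arrays were fitted in limma 3.58.1 (R 4.3.3) with 8 residual degrees of freedom. Adjusted p-values are Benjamini-Hochberg values over 22961 probe sets, and a call needs one under 0.05. Nothing but the labels shows that the arrays of a group are separate litters, so p-values measure the spread between these arrays. With 3 against 3 an exact permutation test cannot go below 0.1, so none was used for single genes. The script was tested on simulated data. The members and lists were chosen with earlier results of these data known, and the classes were assigned after the members had been listed, so the lists are described by counts and medians, with no test of a list. Genes named were mostly drawn from the called members with the 4 largest and the 4 smallest signed log2 differences in each comparison. Others came from the stalk genes, the paralogs with their parents, Rps19bp1, the 3 brightest and 3 dimmest members, and the extremes of each other list. Not every gene of these groups is described. Rpl41, Rpl36, Rpl9 and Rps2 are among those left out, as are many extremes of the other lists. Other genes (Rpl5, Rps10, Larp1, Mtor and those whose promoters are shown) were chosen after their values were seen.

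Alternatives were 3 other tests (SAM, limma with the compared groups only, limma-trend with robust eBayes), a replicate block, 4 other choices of probe sets (without dim ones, with unnamed ones, 1 per gene, mean per gene), canonical genes alone, centring on array medians, a second quantile normalization, stricter thresholds, and dropping single arrays. Plots used matplotlib 3.10.9 (Python 3.11.15).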

Additional observations from a re-analysis of the deposited data

Results flagged for a closer look

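In 13 members the change with age differed between the populations by the interaction test in limma, with Benjamini-Hochberg adjusted p-values over all probe sets. A positive term was called in 8.06% of members and 11.8% of all probe sets, and a negative term in 12.9% and 20.3%. Neither share of the members exceeded the background. The fall was larger in interneurons for Rps21 (-0.57, adjusted p = 0.0023), Rps3a1 (-0.43, adjusted p = 0.0043), Rps19 (-0.42, adjusted p = 0.016) and Rpl38 (-0.41, adjusted p = 0.0019). It was also larger there for Rps15 (-0.30, adjusted p = 0.024), Rpl10 (-0.28, adjusted p = 0.018), Rpl30 (-0.24, adjusted p = 0.041) and Rps14 (-0.24, adjusted p = 0.045). The fall was larger in pyramidal cells for Rpl23a (0.55, adjusted p = 0.0042), Rpl6 (0.53, adjusted p = 0.0043), Rpl22 (0.37, adjusted p = 0.0015), Rpl21 (0.30, adjusted p = 0.043) and Rplp0 (0.21, adjusted p = 0.030). Both probe sets of Rps14 had a negative call, whereas 1 of the 5 probe sets of Rpl10 did, with terms between -0.28 and 0.50, so the sign in Rpl10 depends on the probe set taken. The 9 probe sets of Rpl21 had terms between -0.22 and 0.77, with 3 positive calls. The term was called in 1 of 3 probe sets of Rpl6 and of Rps15, and in 1 of 2 of Rps21 and of Rplp0. Within each of these genes the terms had the same sign. The term of Rpl21 lost its call under 10 alternatives, and those of Rpl23a and Rpl38 lost it when the probe sets of the gene were averaged. With 3 arrays in a group, no array was tested as an outlier.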

How the results depend on the processing

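Between 49 and 54 members were lower with age in each population under the alternatives other than fold thresholds. At 1.5-fold, 39 in interneurons and 35 in pyramidal cells passed, and at a fold over 2, 5 and 14. In IN P10 against IN P0, SAM called 2 members higher, and the 2 groups alone and the filter on dim probe sets 1 each. The median in Pyr P12 against Pyr P0 was -0.70 after a second quantile normalization and -0.69 over canonical genes. In IN P10 against Pyr P12, 0 members were higher and 0 lower at a fold over 2, 3 and 0 at 1.5-fold, and 12 and 4 at an adjusted p under 0.01, and SAM called 12 lower. In IN P0 against Pyr P0, 0, 1 and 2 were higher under those 3 thresholds, and SAM called 11 higher and 1 lower. For age by population, 0 positive and 0 negative terms passed at 2-fold and at 1.5-fold, and 3 and 3 at an adjusted p under 0.01. Limma-trend gave 8 positive terms, and centring on medians 4 negative ones. Shares over all probe sets under the alternatives are not given here, apart from the falls with age at a fold over 2 given above. This holds for the replicate block and for single arrays left out too, so these counts have no background beside them. The causes were not tested.

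Leaving out each array gave 0 to 1 members higher, 50 to 53 lower and medians of -0.69 to -0.64 in interneurons with age, and 0 to 1, 49 to 52 and -0.71 to -0.62 in pyramidal cells. It gave 13 to 24 higher, 4 to 9 lower and medians of 0.10 to 0.16 in IN P10 against Pyr P12, and 3 to 6, 0 to 0 and 0.04 to 0.09 in IN P0 against Pyr P0. For age by population it gave 3 to 9 positive, 5 to 9 negative and medians of -9e-04 to 0.092. Over 181 pairs of a gene and a comparison and 22 alternatives, no called difference changed sign, while 176 values lost their call and 18 gained one. These pairs left out the age by population terms of Rpl10, Rps15, Rpl30, Rps14 and Rplp0. Single probe sets of a gene were not among these alternatives.

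Deviations of same-lettered arrays had an r of -0.18 to 0.19 over 18 pairs, 6 above 0.1. Arrays with different letters were not compared, so these values cannot show whether the letters pair the arrays. With the letter as a replicate block, 53 members were lower with age in each population, IN P10 exceeded Pyr P12 in 23 and was lower in 5, IN P0 exceeded Pyr P0 in 6, and 6 positive and 8 negative terms were called. Dim members (Rpl39l, Rpl3l, Rpl10l) lie at or near the background level, which limits what they can show. The canonical gene Rpl7a was dim too, with a mean of 7.84 for the brightest of its 3 probe sets. The differences of these 3 lay between -0.68 and 0.00 in interneurons, with 2 lower. In pyramidal cells they lay between -0.66 and 0.52, with 2 lower and 1 higher. Rpl3l passed with SAM in interneurons (0.09) and without Pyr P12 C in pyramidal cells (0.18), and Rpl10l without IN P10 B in interneurons (0.21).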
